A study of Mus musculus with 2 samples.

Results

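Active zone scaffold proteins build the platform at the presynaptic membrane where synaptic vesicles dock and fuse. RIM proteins hold vesicles and calcium channels together, RIM-binding protein and ELKS proteins link RIM to channels, Munc13 makes docked vesicles ready to fuse, liprins help to assemble the site, and the giant proteins Bassoon and Piccolo tether the vesicle cluster. These proteins act in axon terminals, but their mRNAs are made in the cell body, so their level in a synaptosome preparation is a separate measurement from that of the proteins.

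The genes described here are Rims1, Rims2, Rims3, Bsn, Pclo, Unc13a, Erc1, Erc2, Ppfia3 and Rimbp2, chosen by name: 10 of the 23329 genes in the deposited transcript files, with 20 of the 30383 transcript rows. The choice was made with earlier results of these data known. All 10 passed the filter on low counts. The study compared 2 RNA-seq libraries. The first was made from a fraction enriched in synaptosomes, which are nerve terminals that reseal after homogenization, often with a piece of the postsynaptic side, and was taken between the 3% and 10% Percoll layers. The other was made from the total homogenate. Both came from whole brain of C57BL/6 mice labelled WT, and the labels name no treatment. Both titles carry CT10, which the labels do not explain, and the labels give no age, sex or number of animals per library. There was no replicate, so no p-value is given, and each 95% interval below is exact and covers counting error only. In bulk RNA of this kind, more particles of a kind and more RNA in each particle cannot be told apart.

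The libraries held 13709539 estimated reads in the synaptosome fraction and 15210857 in the homogenate. Marker genes showed that the fraction was not made of nerve endings alone. Of 7 astrocyte markers, 6 were higher by 2-fold or more in the fraction, with a summed level of 8640 TPM against 2780 TPM in the homogenate (TPM is the share of transcripts, corrected for length). Of 6 microglial markers 3 were higher, with 436 TPM against 260 TPM, and of 6 oligodendrocyte markers 2 were higher, with 21653 TPM against 9284 TPM. All 6 endothelial markers were lower, with 14.7 TPM against 215 TPM, and so were all 4 nuclear RNAs, with 498 TPM against 3315 TPM. Of 6 general neuronal markers 0 were higher and 2 lower, with 2640 TPM against 6129 TPM, and of 5 dendritic mRNAs 3 were higher and 0 lower, with 4329 TPM against 2309 TPM. No marker was at 0 in either library, and the part that these shifts have in the results below was not tested.

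Active zone scaffold mRNAs did not move as one group. In the synaptosome fraction Rims1, Rims3, Ppfia3 and Bsn were higher by 2-fold or more, 4 of 10, whereas 12.8% of the 14153 genes kept were higher by the same rule (at least 2-fold, with the interval of the log2 ratio excluding 0). None of the 10 was at least 2-fold lower, against 9.1% of all genes. The other 6 lay between, from Erc1 at 1.60-fold higher to Erc2 at 1.41-fold lower. The median log2 ratio, synaptosome over homogenate, was 0.67 for the 10 genes and -0.01 for all genes kept. Together the 10 genes took 27856 estimated reads, 0.203% of the total, in the synaptosome fraction and 26998 reads, 0.177%, in the homogenate.

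These ratios are scaled with TMM, a method that sets the typical gene near 0. With library totals in place of TMM the median over all genes was -0.51, a shift of -0.49 on the log2 scale that applies to every gene. Under library totals Rims1 alone was at least 2-fold higher, 1 of 10, against 4.49% of all genes. At least 2-fold lower were 0 of 10, against 25.6%, with Erc2 just short of the rule at a log2 ratio of -0.99. Every one of the 10 genes kept the sign of its ratio, but Rims2 stood near 0, at 0.07. On the log2(TPM + 1) scale Rims1 was the 1 of 10 genes that was higher by 2-fold or more, against 3.34% of all genes, and Erc2 the 1 that was lower, against 21.6%. By TMM with a 1.5-fold rule, 6 of 10 were higher (24.0% of all genes) and 0 lower (20.9%). With a 3-fold rule 1 of 10, again Rims1, was higher (3.62% of all genes) and 0 lower (2.79%).

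**Figure D1:**
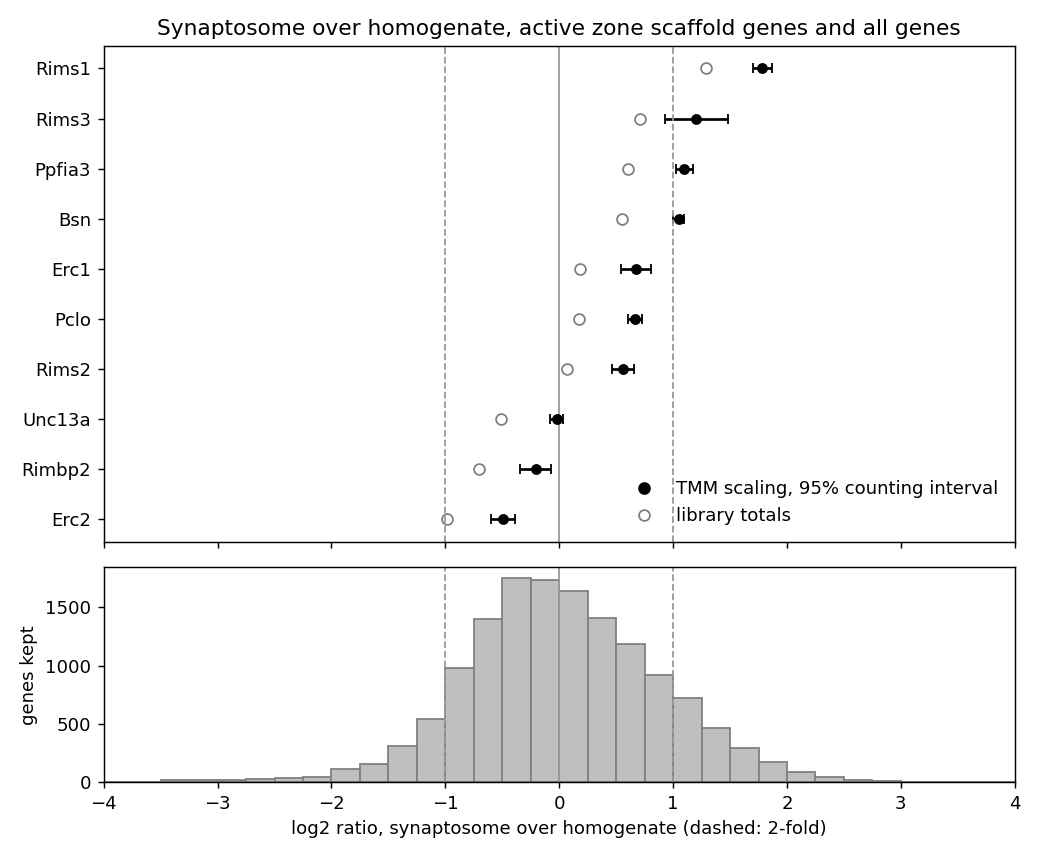
Top: log2 ratio of synaptosome over homogenate for each of the 10 genes, under TMM scaling with its 95% counting interval (filled points) and under library totals (open points). Bottom: number of genes kept at each TMM-scaled log2 ratio. The 10 genes run from -0.49 for Erc2 to 1.78 for Rims1, and 7 of 10 lie above 0 under both scalings.

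By TMM-scaled read counts, Rims1, Rims2 and Rims3 were all higher in the synaptosome fraction, to different degrees. The log2 ratio of Rims2 depended on the scaling, at 0.07 under library totals and -0.21 on the log2(TPM + 1) scale. Rims1, which encodes the central organiser RIM1, had 3484 reads in the synaptosome fraction and 1579 in the homogenate, or 301 and 87.5 TMM-scaled CPM (counts scaled to library size). It was 3.45-fold higher in the synaptosome fraction (3.25 to 3.66), above 97.8% of all genes kept. Rims1 lies on chromosome 1, from 22288422 to 22805724 on the minus strand (mm10, as all coordinates here).

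The files list the exons of Rims1 as a pair of separate blocks. Of 9 Rims1 transcripts in the GENCODE annotation of the same build, 5 span both blocks and 1 has the ends of each block alone. The 5′ block, from 22468191 to 22805724, stands under 3 rows with identical exons and identical estimates, and the 3′ block, from 22288422 to 22432843, under 3 splice forms. The 5′ block had 1338 reads in the synaptosome fraction and 539 in the homogenate and was 3.88-fold higher (3.50 to 4.29). The 3′ block had 2146 and 1040 reads and was 3.22-fold higher (2.99 to 3.47). Both blocks were thus higher in the synaptosome fraction. The log2 ratio of the 5′ block exceeded that of the 3′ block by 0.27 (0.08 to 0.45), and the 5′ block held 38.4% of the gene's reads in the synaptosome fraction (36.8 to 40.0) against 34.1% in the homogenate (31.8 to 36.5).

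Within the 3′ block the counting intervals showed no difference between the splice forms. NM_001012623 has 1 base in no other Rims1 row and NM_183018 has 0. The division of reads between them rests on the authors' estimate, an error that the intervals do not cover. NM_001012623 had 1367.00 estimated reads in the synaptosome fraction against 642.30 in the homogenate, and NM_183018 had 681.82 against 335.60. The ratio of NM_183018 was 0.953 times that of NM_001012623 (0.809 to 1.12). NM_053270, which holds 84 bases in no other Rims1 row, had 97.18 against 62.10 reads, and its ratio was 0.735 times that of NM_001012623, with an interval from 0.521 to 1.04 that includes no difference.

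Rims2, on the plus strand of chromosome 15 from 39198286 to 39684372, encodes RIM2, which shares the role of RIM1 at many synapses. It had 1709 reads in the synaptosome fraction and 1809 in the homogenate, or 148 and 100.2 CPM, and was 1.48-fold higher (1.38 to 1.58). The ratio of Rims1 was 2.34 times that of Rims2 (2.13 to 2.56). The gene total of Rims2 joined forms that went in opposite directions.

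Rims2 has 4 rows in the files. In 3 of them the mRNA starts at 39198286 and spans 26 or 27 exons, and these long forms differ by which internal exons they hold. The other, NM_001256384, starts at 39659511 and has 6 exons, of which the last 5 are shared with the long forms. Its coding sequence in GENCODE has 858 bases with the stop codon, against 4719 in the long form NM_001256382. A short RIM2 protein from an internal promoter is known from rat, and such short forms lack the domains through which RIM binds Rab3 and Munc13. The coding part of the short form's own first exon (chr15:39659785-39659926, plus strand) is shown because it is absent from every long form, with the start codon in capitals. The exon of 66 bases (chr15:39517806-39517871) separates NM_001256382 from NM_001256383, and the exon of 180 bases that follows it (chr15:39534838-39535017) is missing, together with the exon of 66, from NM_053271. Both are in capitals, the first between 20 bases of each neighbouring exon in lower case. All were read from GENCODE transcripts on GRCm38, the assembly that mm10 names.
Rims2 short form, first exon: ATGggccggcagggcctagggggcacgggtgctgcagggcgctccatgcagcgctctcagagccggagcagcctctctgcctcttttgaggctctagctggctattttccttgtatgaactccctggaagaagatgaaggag
Rims2 exon of 66 bases: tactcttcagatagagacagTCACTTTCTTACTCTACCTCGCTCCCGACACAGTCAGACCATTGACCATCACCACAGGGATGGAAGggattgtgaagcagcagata
Rims2 exon of 180 bases: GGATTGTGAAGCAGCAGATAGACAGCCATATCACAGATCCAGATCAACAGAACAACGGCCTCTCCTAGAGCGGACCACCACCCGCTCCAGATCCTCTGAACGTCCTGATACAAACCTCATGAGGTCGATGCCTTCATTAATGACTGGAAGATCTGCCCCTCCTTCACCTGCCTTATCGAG

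The short Rims2 form was lower in the synaptosome fraction while the long forms were higher. The short form had 145.10 estimated reads in the synaptosome fraction against 508.51 in the homogenate and was 2.25-fold lower (1.87 to 2.72). The long forms together had 1564 against 1301 reads and were 1.88-fold higher (1.74 to 2.02). The ratio of the long forms was 4.22 times that of the short form (3.45 to 5.18). The short form held 8.48% of the gene's reads in the synaptosome fraction (7.21 to 9.91) and 28.1% in the homogenate (26.1 to 30.3). Per length it made up 15.7% of Rims2 TPM in the synaptosome fraction and 43.9% in the homogenate.

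The summed level of Rims2 was 42.7 TPM in the synaptosome fraction and 49.7 TPM in the homogenate. The summed TPM thus gives a log2 ratio below 0, at -0.21 on the log2(TPM + 1) scale, where the TMM-scaled read counts give 0.56. On that scale the median of all genes was -0.49. Of the short form's 3740 bases, 416 are in no other Rims2 row, and the rest of its reads had to be divided between forms by the authors' estimate, an error that the intervals do not cover. The short Rims2 form lies at the 3′ end of the gene, and in Rims1 the 3′ block also had the lower ratio of the pair. The part of read coverage along the mRNA in either difference was not tested.

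Among the long Rims2 forms, the main one was NM_001256382, with 1235.31 reads in the synaptosome fraction and 1067.66 in the homogenate. NM_001256383, without the exon of 66 bases, had 208.50 against 185.16 reads, and its ratio was 0.977 times that of the main form (0.784 to 1.22). A difference up to those bounds is not detectable at this depth. NM_001256383 has 0 bases in no other Rims2 row, so its reads too were divided by the authors' estimate. NM_053271, without both exons shown above, had 120.09 reads in the synaptosome fraction against 47.76 in the homogenate and was 3.90-fold higher (2.77 to 5.58). Its ratio was 2.16 times that of the main form (1.52 to 3.12), and its share of Rims2 reads was 7.02% in the synaptosome fraction and 2.65% in the homogenate. This form has 120 bases in no other Rims2 row.

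**Figure D2:**
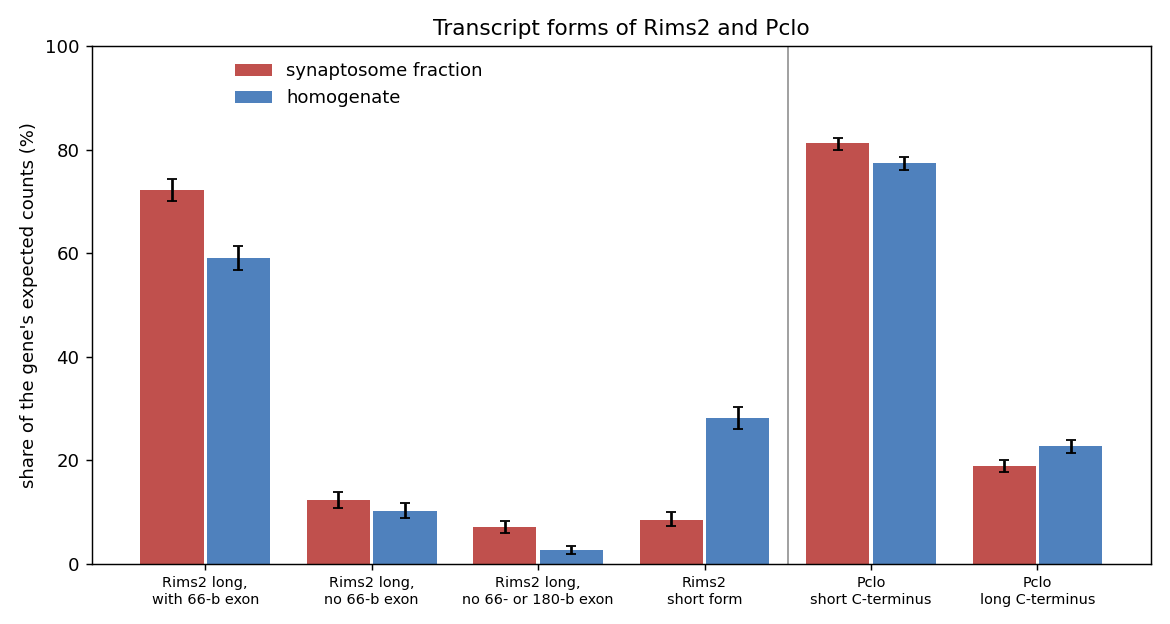
Share of each gene's estimated reads held by each transcript form of Rims2 and Pclo, in the synaptosome fraction (left bar of each pair) and the homogenate (right bar), with 95% exact binomial intervals for counting error. The short Rims2 form holds 8.48% in the synaptosome fraction and 28.1% in the homogenate, while the Pclo forms shift by less.

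Rims3, on chromosome 4 from 120877869 to 120891560 on the plus strand, encodes a small RIM that holds little more than the last domain of the larger proteins. It had the fewest reads of the 10 genes, 274 in the synaptosome fraction and 186 in the homogenate, or 23.7 and 10.3 CPM. It was 2.30-fold higher in the synaptosome fraction, with an interval from 1.90 to 2.79 that reaches below 2-fold. The ratio of Rims3 was 1.56 times that of Rims2 (1.27 to 1.91) and 5.16 times that of the short Rims2 form (3.94 to 6.78), whereas the log2 ratio of Rims1 exceeded that of Rims3 by 0.58 (0.29 to 0.87).

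Bassoon and Piccolo, encoded by the longest mRNAs of the group, were both higher, Bsn by more. Bsn, on chromosome 9 from 108096022 to 108190383 on the minus strand, had 7887 reads in the synaptosome fraction and 5954 in the homogenate, or 682 and 330 CPM, the most of the 10 genes in both libraries. It was 2.07-fold higher in the synaptosome fraction, with an interval from 2.00 to 2.14, so that it lay at the edge of the rule. Pclo, on the plus strand of chromosome 5 from 14514918 to 14863459, had 4435 and 4361 reads, or 384 and 242 CPM, and was 1.59-fold higher (1.52 to 1.66). The log2 ratio of Bsn exceeded that of Pclo by 0.38 (0.30 to 0.46).

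Pclo has a pair of forms with different ends. After their last shared exon, the short form NM_001110796 runs on into a few codons and a stop, whereas the long form NM_011995 continues to an exon that starts at 14811610 and on to a further C2 domain, a fold that binds membranes or other proteins. The coding bases at the fork are shown because reads from there on tell the forms apart, with the last 20 shared bases in lower case and the form's own bases in capitals (chr5:14794027-14794043 for the short form and chr5:14811610-14811629 for the long one, plus strand, same source).
Pclo short form: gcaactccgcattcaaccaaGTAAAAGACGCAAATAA
Pclo long form: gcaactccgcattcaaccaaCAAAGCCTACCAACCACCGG

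The short Pclo form had 3599.70 reads in the synaptosome fraction and 3370.78 in the homogenate and was 1.67-fold higher (1.59 to 1.75). The long form had 834.96 against 990.42 reads and was 1.32-fold higher (log2 ratio 0.40, 0.26 to 0.53). The direction of the long form turned with the scaling, to a log2 ratio of -0.10 under library totals and -0.13 on the log2(TPM + 1) scale. The ratio of the short form was 1.27 times that of the long form (1.14 to 1.41). The short form held 81.2% of Pclo reads in the synaptosome fraction (80.0 to 82.3) and 77.3% in the homogenate (76.0 to 78.5), and so was the main form in both.

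Ppfia3 stood with Bsn and Rims1 among the genes that were higher. It encodes liprin-alpha-3, a brain liprin that helps to bring scaffold proteins to the active zone, and lies on chromosome 7 from 45339126 to 45367019 on the minus strand. It had 3636 reads in the synaptosome fraction and 2651 in the homogenate, or 315 and 147 CPM, and was 2.14-fold higher (2.04 to 2.25).

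Unc13a had the ratio of the typical gene. It encodes Munc13-1, without which few vesicles become ready for release at most excitatory synapses, and lies on chromosome 8 from 71626712 to 71671757 on the minus strand. It had 3714 reads in the synaptosome fraction and 5889 in the homogenate, or 321 and 326 CPM, with a log2 ratio of -0.02 and an interval of -0.08 to 0.04. The interval includes 0, and with the size factors of DESeq2 the log2 ratio was 0.0048. The ratio of Bsn was 2.10 times that of Unc13a (1.99 to 2.22), and that of Ppfia3 2.17 times (2.04 to 2.32).

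The ELKS genes Erc1 and Erc2 went in opposite directions. Erc1, which is also made outside the brain, lies on chromosome 6 from 119570796 to 119848150 on the minus strand. It had 932 reads in the synaptosome fraction and 912 in the homogenate, or 80.6 and 50.5 CPM, and was 1.60-fold higher (1.45 to 1.75). Erc2, the brain relative known as CAST, lies on chromosome 14 from 27622442 to 28478537 on the plus strand. It had 1104 reads in the synaptosome fraction against 2429 in the homogenate, or 95.5 and 135 CPM, and was 1.41-fold lower (1.31 to 1.51), the lowest ratio of the 10 genes. The ratio of Erc1 was 2.25 times that of Erc2 (2.00 to 2.53). Erc1 was read almost wholly as its long form. A short form, NM_178085, had 14.57 against 11.46 reads, and its ratio could not be set apart from that of the long form (1.34 times, 0.571 to 3.24). On the log2(TPM + 1) scale Erc2 passed 2-fold lower, at -1.01.

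Rimbp2, which encodes the RIM-binding protein that links RIM to calcium channels, was slightly lower. It lies on chromosome 5 from 128760401 to 128953362 on the minus strand and had 681 reads in the synaptosome fraction and 1228 in the homogenate, or 58.9 and 68.1 CPM. It was 1.15-fold lower (1.05 to 1.27).

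Levels per length show which scaffold mRNAs were abundant in each library. For Rims1 the level is given by block, since adding them would count an mRNA that spans both more than once. In the synaptosome fraction the order began with the Rims1 3′ block at 190 TPM, then Ppfia3 at 128 TPM and the Rims1 5′ block at 126 TPM, whose counting intervals overlapped. Bsn at 83.6 TPM and Unc13a at 79.3 TPM also overlapped. Below them came Rims3 at 52.2 TPM, then Pclo at 43.1 TPM and Rims2 at 42.7 TPM, which overlapped, then Erc2 at 31.0 TPM and Rimbp2 at 27.5 TPM, which overlapped, and Erc1 at 18.9 TPM.

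In the homogenate Unc13a stood first at 117 TPM. Ppfia3 at 86.8 TPM and the Rims1 3′ block at 85.7 TPM followed and overlapped, and Erc2 at 63.4 TPM and Bsn at 58.7 TPM came next, in that order beyond counting error. Rims2 at 49.7 TPM, the Rims1 5′ block at 47.3 TPM and Rimbp2 at 46.0 TPM overlapped as neighbours, as did Pclo at 39.2 TPM and Rims3 at 33.0 TPM, and Erc1 was again last at 17.0 TPM. Unc13a, Erc2, Rims2 and Rimbp2 thus stood lower in the order of the synaptosome fraction than in that of the homogenate. Rims2 and Rimbp2 each lay below Rims3 in the synaptosome fraction and above it in the homogenate, with intervals that did not overlap in either library. TPM shares out a fixed total, so a level in 1 library depends on all other genes of that library.

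**Figure D3:**
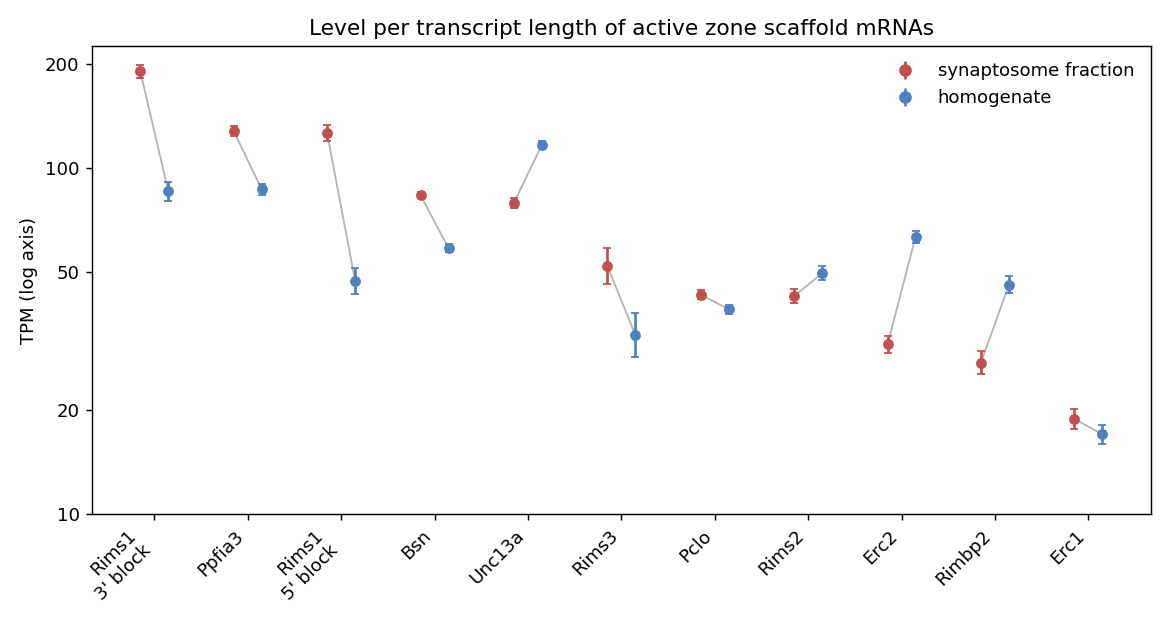
Level per transcript length (TPM, log axis) of the active zone scaffold mRNAs in the synaptosome fraction (left point of each pair) and the homogenate (right point), with 95% counting intervals, in the order of the synaptosome fraction and with Rims1 given by exon block. Unc13a, Rims2, Erc2 and Rimbp2 have the lower TPM in the synaptosome fraction and the other genes the higher.

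Transcript length and abundance were set beside the ratios. Of the 10 genes, 6 have a longest transcript row of at least 6000 bases. Rims1 entered here with 2189 bases, the longest row of 1 exon block, not with the length of an mRNA that spans both blocks. Among all genes kept, the 1570 with a transcript of at least 6000 bases had a median log2 ratio of 0.0048. Across genes, Spearman's rho between the ratio and the longest transcript was -0.30 over the 10 genes and 0.01 over 14145 genes, and between the ratio and the mean CPM it was 0.07 over the 10 genes and 0.26 over 14145 genes. These are descriptions across genes that share the same pair of libraries, not a relation over samples.

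The paralogues left outside the group were also split. Of 9 listed, 8 passed the filter on low counts. By TMM and the 2-fold rule 2 of these were higher and 0 lower, beside 12.8% and 9.1% of all genes. The median log2 ratio of the paralogues was 0.12. Unc13c, a Munc13 known mainly from cerebellar granule cells, had 2405 reads in the synaptosome fraction against 1028 in the homogenate and was 3.65-fold higher. Rims4, a small RIM like Rims3, had 228 against 122 reads and was 2.92-fold higher. Unc13b, the Munc13-2 gene, went the other way with 451 against 1301 reads, 1.85-fold lower, and Ppfia2, a liprin, had 703 against 1824 reads, 1.66-fold lower. Under library totals Unc13b and Ppfia2 were at least 2-fold lower, at log2 ratios of -1.38 and -1.23, beside 25.6% of all genes. Unc13c and Rims4 then stayed at least 2-fold higher, at 1.38 and 1.05, beside 4.49% of all genes. Ppfia1 was 1.37-fold and Ppfia4 1.25-fold higher by TMM, but their log2 ratios turned to -0.04 and -0.17 under library totals and to -0.08 and -0.21 on the log2(TPM + 1) scale. Tspoap1, listed as Bzrap1 and encoding the first RIM-binding protein, was 1.06-fold lower and Rimbp3, with 18 against 35 reads, 1.25-fold lower. Unc13d, with 13 and 9 reads, did not pass the filter.

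By TMM and the 2-fold rule, calcium channel genes of the release site were higher in 5 of 10 cases and lower in 1. The shares of all genes were 12.8% and 9.1%, and the median log2 ratio of the 10 was 1.02. The pore subunits were all among those that were higher: Cacna1e at 3.08-fold, Cacna1b, the N-type channel, at 2.61-fold and Cacna1a, the P/Q-type channel that drives release at most central synapses, at 2.42-fold. Cacna1a had 3922 reads in the synaptosome fraction and 2526 in the homogenate. The beta subunit genes, whose proteins sit on the inner side of the pore, ranged from Cacnb3, the most abundant of them at 1.89-fold higher, to Cacnb4 at 1.56-fold lower and Cacnb2 at 2.10-fold lower. Under library totals only Cacna1e stayed at least 2-fold higher, at a log2 ratio of 1.13, with Cacna1b at 0.89 and Cacna1a at 0.78. Cacnb2 and Cacnb4 were then at least 2-fold lower, at -1.57 and -1.14.

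By TMM, adhesion proteins that recruit the scaffold from the cell surface were higher in 4 of 6 cases and lower in 0. The shares of all genes were 12.8% and 9.1%, and the median log2 ratio of the 6 was 1.14. Under library totals no gene of this list was at least 2-fold higher or lower, and Nrxn3 had a log2 ratio of 0.73. Nrxn3, a neurexin, had 4705 reads in the synaptosome fraction and 3144 in the homogenate and was 2.34-fold higher. Ptprs and Ptprd, receptor phosphatases that bind liprins, were 1.65-fold and 1.27-fold higher by TMM, but the log2 ratio of Ptprd turned to -0.15 under library totals and to -0.22 on the log2(TPM + 1) scale.

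Partner proteins of the release site were mostly between: by TMM and the 2-fold rule 2 of 24 were higher and 3 lower. The shares of all genes were 12.8% and 9.1%, and the median log2 ratio of the partners was -0.06. Git1, a scaffold that binds Piccolo and liprins, had 9016 reads in the synaptosome fraction against 4559 in the homogenate and was 3.09-fold higher. Apba1, the adaptor Mint1, was 2.04-fold higher. Rph3a, the Rab3 effector rabphilin, had 8811 reads in the synaptosome fraction against 8885 in the homogenate and was 1.55-fold higher. Rab3b and Rab3a, vesicle GTPases that RIM binds, were 3.00-fold and 2.39-fold lower.

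Over these 4 lists, 13 of 48 genes passed the 2-fold rule as higher and 4 as lower, with a median log2 ratio of 0.26, beside 12.8% and 9.1% of all genes. Under library totals the counts were 4 higher and 12 lower, beside 4.49% and 25.6% of all genes. By the 2-fold rule, genes of the release site thus spanned both directions under either scaling, as did all genes. The active zone scaffolds did so by the sign of the ratio only, with 0 at least 2-fold lower under either scaling. Erc2 came close to the rule under library totals, at a log2 ratio of -0.99, and passed it on the log2(TPM + 1) scale, at -1.01.

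**Figure D4:**
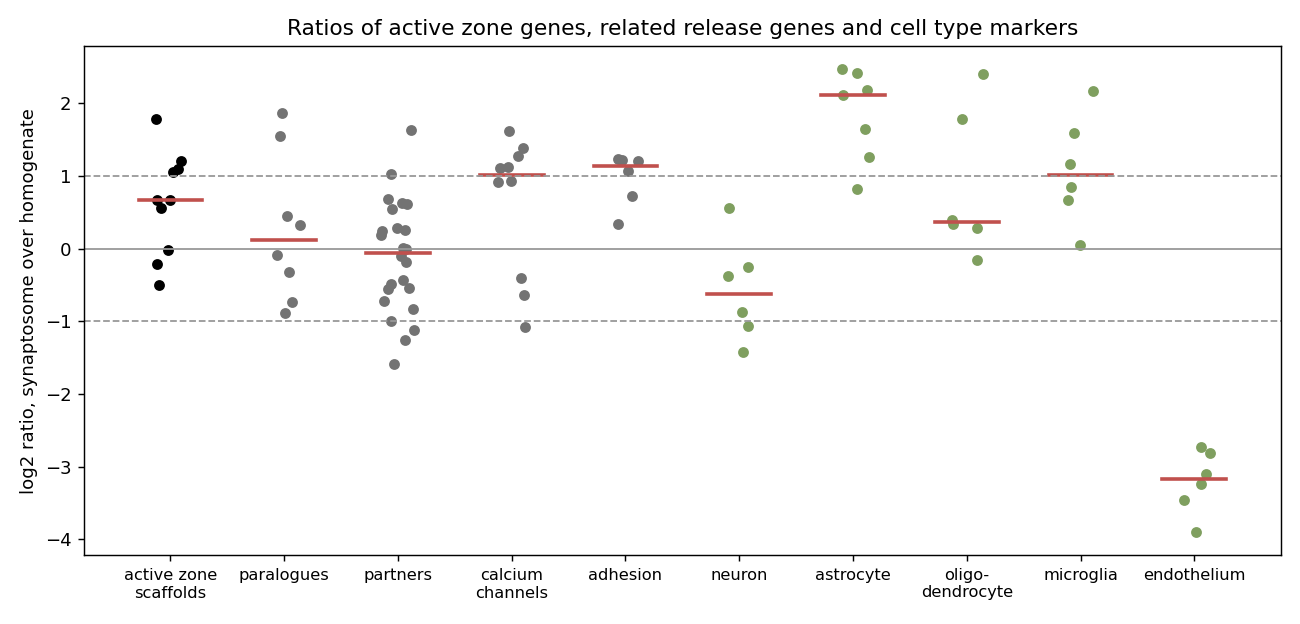
Log2 ratio of synaptosome over homogenate (TMM scaling) for each gene kept in the active zone scaffold group, in 4 lists of related release site genes and in 5 lists of cell type markers, with the median of each list as a bar and 2-fold as dashed lines. The scaffolds have a median of 0.67, the astrocyte markers one of 2.12 and the endothelial markers one of -3.17.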

How the data were processed

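The authors deposited, for each of the 2 libraries, an expected count, TPM and FPKM per transcript, and a table with 1 signal value per gene. Expected counts are estimates and can be fractional. The deposited TPM sums to the same total in each library and so holds no depth, and the deposited FPKM was not used. The deposited signal per gene served as an alternative. RSEM 1.2.5, TopHat 1.3.3, edgeR 3.0.6, FastQC and mm10 are listed, without a role, per the submitters' processing notes. Per the labels' protocols, libraries were stranded mRNA libraries read as 100-base reads.

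Here, expected counts were summed per gene and rounded. TMM factors from edgeR 4.0.16 (R 4.3.3) were 0.843 for the synaptosome fraction and 1.19 for the homogenate. The filter on low counts was a mean CPM of 1 or more over both libraries. Intervals are exact Clopper-Pearson intervals of the ratio or share (conditional exact intervals for a ratio of ratios), at 95%, from scipy 1.17.1. PCR copies are not independent molecules, so counting error may be understated. Each gene or form was called higher or lower at 2-fold or more with an interval excluding 0. On counts simulated for this comparison over 14153 genes, with counting error alone (Poisson), 95.69% of the intervals held the simulated ratio. The simulation held no PCR copies and no error in assigning reads, so it checks the calculation only. Alternatives were library totals, DESeq2 1.42.0 size factors, TPM, the deposited signal, other fold thresholds, no filter and 1 transcript per gene. Named were all 10 genes, their transcripts with at least 10 reads, all paralogues, and the 2 most abundant, highest and lowest genes of each other list, plus Cacna1a, chosen after its values were seen; 2 genes that the rule names are not reported here. The members and lists were chosen with earlier results of these data known.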

Additional observations from a re-analysis of the deposited data

How the results depend on the processing

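The count of active zone scaffold genes at least 2-fold higher was 4 by TMM, DESeq2 size factors, the deposited signal, the most abundant transcript alone and, an alternative added after the data were seen, the posterior estimates of the counts. It was 6 with a 1.5-fold rule (24.0% of all genes), 1 under library totals (4.49%), 1 with TPM + 1 (3.34%) and 1 with a 3-fold rule (3.62%). The count at least 2-fold lower was 0 except with TPM + 1, where it was 1 (21.6% of all genes). Their median log2 ratio ranged from 0.14 with TPM + 1 to 0.80 with the most abundant transcript alone. Rims2 reversed to -0.21 with TPM + 1 and -0.22 with TPM + 0.1, and Unc13a to 0.0048 with DESeq2 size factors. TPM changes both the scaling and the weight of each form, and library totals alone gave Rims2 0.07. Under library totals, 636 of all genes were higher and 3629 lower, in place of 1807 and 1288, and of the related release genes 4 were higher and 12 lower, in place of 13 and 4. The cause was not tested beyond the shift of -0.49 that this scaling gives every gene. Transcript shares by TPM in place of reads lay outside the counting interval in 14 of 28 cases. No paired analysis was possible because there was 1 library per fraction. Differences under the widths of the intervals, such as those of Rims3 or the short Erc1 form, are limited by depth.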
